A study of Sorghum bicolor with 177 samples.

Results

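Roots of Sorghum bicolor BTx623, the reference line of the species, were compared after 21 d in a solution with excess zinc and after 21 d in the control solution. The members are the genes with at least 5 TPM (a transcript abundance scaled by length and library size) in at least one of the 2 deposited columns of mean TPM. They number 16473 of 34129 genes. The seedlings were moved to hydroponics 7 days after germination, acclimated for 3 weeks in the control solution and then transferred at random. The zinc-excess solution held 100 µM ZnSO4 and the control 1 µM, both with 50 µM NaFeEDTA. Zinc limitation (0 µM ZnSO4), iron limitation (0 µM NaFeEDTA) and iron excess (1 mM NaFeEDTA) were the other solutions at the same time. Each of the 2 groups had 3 plants, 1 library each. By the library names the roots of these same plants had also been sampled at 1 h, and their leaves at 21 d.

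Zinc is a cofactor of many enzymes and transcription factors, and plants take it up from the soil with ZIP transporters, which plants generally express more strongly when zinc is scarce. Zinc in excess is toxic to roots: it competes with iron and other metals for transporters and binding sites, stresses the cell's redox balance and slows root growth. Plants bind the surplus with nicotianamine, phytochelatins, metallothioneins and organic acids, or move it into vacuoles with MTP and ZIF carriers and into the xylem with HMA pumps.

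The deposited values are the authors' means over the libraries of a group. Each group therefore has 1 value here, without an SD, and a single time has no test. A difference is given as log2(mean TPM + 1) in zinc excess minus that in control, on which 1 unit is 2-fold, and which understates the change of genes at low TPM. The filter has an edge without a gap: Sobic.007G090403, at 4.53 TPM in zinc excess and 5.0003 in control, is just inside it, and Sobic.004G046500, at 4.9997 and 4.94, just outside. At the 2-fold threshold, Sobic.003G238600 at 5.13 against 11.3 TPM counts as lower and Sobic.001G371100 at 100.2 against 201 does not. Photosystem and light-harvesting genes, which mark leaf tissue, summed to 416 TPM in zinc-excess roots, 417 in control roots and 224243 in control leaves, and 27 of 89 were at 0 in zinc-excess roots. Genes of lists named for root tissues were present in both root columns. The Casparian strip and endodermis list summed to 742 TPM in zinc excess and 682 in control, and the root hair list to 577 and 612. Of their members, 7 of 54 and 4 of 33 were at 0 in zinc excess. In control leaves these lists summed to 476 and 194 TPM, so they set root and leaf apart far less than the photosystem list.

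Some columns stand apart and touch the results below. The control roots at 21 d differed from those at 14 d by at least 2-fold upward in 832 genes and downward in 336, of 16175 past the same filter in these columns. The core histone list summed to 5204 TPM in control roots at 2 d and 5814 at 4 d, against 11216 at 1 h and 13325 at 7 d, so the controls of 2 d and 4 d stood below those around them. Expansins behaved likewise, with 1717 and 1359 TPM at 2 d and 4 d against 2581 and 2135 at 1 h and 7 d. The zinc-excess column at 14 d, a mean over 2 libraries, was high both in genes of zinc excess and in ZIP genes. The zinc-limitation column at 14 d, also a mean over 2 libraries, and that at 4 d held high values of several genes named below. By their decimals 3 means rest on other numbers of libraries than the labels list: root zinc excess at 2 d (3 against 2) and 7 d (4 against 5) and iron excess at 7 d (3 against 2). The part of these columns in the results was not tested, and counts against the control at 14 d are given for several lists.

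Zinc-excess roots at 21 d differed from control roots in many genes in both directions. At least 2-fold higher were 1241 genes (7.53 percent of the 16473) and at least 2-fold lower were 1888 (11.5 percent). The median gene was at -0.21 log2 units. With the zinc-excess column rescaled to bring that median to 0, the counts were 1598 higher (9.7 percent) and 1371 lower (8.32 percent), so the share of higher genes among those past 2-fold moved from 39.7 to 53.8 percent. At least 8-fold were 142 of the 16473 genes higher and 105 lower. Of the 142, 118 were also at least 8-fold above the control of 14 d. Of the 105, only 30 were at least 8-fold below the control of 14 d, and 38 were under 5 TPM in every earlier root control. Against the same control column, zinc limitation gave 860 higher (5.25 percent) and 312 lower genes (1.91 percent). Iron excess gave 176 higher (1.1 percent) and 821 lower (5.12 percent), and iron limitation 377 (2.34 percent) and 138 (0.857 percent). These comparisons share their control.

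Both directions were also read against the control of 14 d, where 1649 genes were higher (10.0 percent) and 1581 lower (9.6 percent). Of the higher genes, 83.5 percent were also at least 2-fold above the control of 14 d, and of the lower genes 58.6 percent were at least 2-fold below it. In 534 genes (3.24 percent) zinc excess lay at least 2-fold above each of the other 4 solutions at 21 d, and in 504 (3.06 percent) at least 2-fold below each. Glutathione S-transferases and defence proteins were the lists with the highest shares of higher genes, and core histones, expansins, secondary wall genes and class III peroxidases those with the highest shares of lower genes. The lists were drawn up with earlier results of these data known and get no test.

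**Figure D1:**
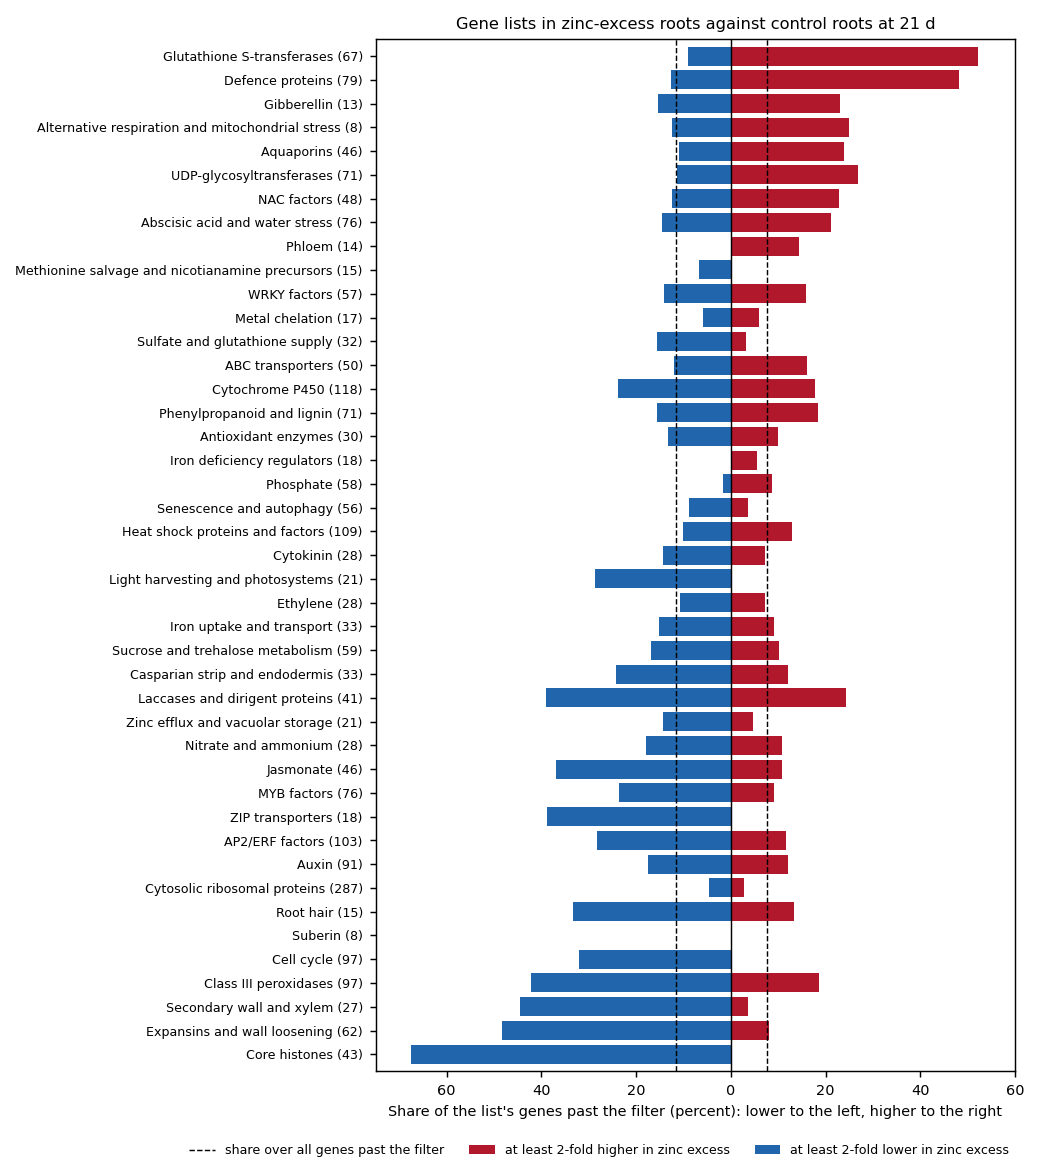
Share of the genes of each list (number past the filter in parentheses) that were at least 2-fold higher (red, right) or lower (blue, left) in zinc-excess than in control roots at 21 d, in percent, sorted by the list's median. Dashed lines mark the shares over all genes, 7.53 percent higher and 11.5 percent lower. Core histones reach 29 of 43 lower with none higher, and glutathione S-transferases 35 of 67 higher.

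Many genes of glutathione conjugation were higher in zinc excess than in control. Glutathione S-transferases join glutathione to reactive or foreign compounds so that they can be stored in the vacuole. Of 67 past the filter, 35 were higher and 6 lower, with a median of 1.24 against -0.21 over all genes. 23 of them lay at least 2-fold above every other solution at 21 d. Against the control of 14 d the counts were 31 and 5. The medians against the other solutions at 21 d were 0.64 (zinc limitation), 1.16 (iron excess) and 0.86 (iron limitation). The whole list of 107 summed to 5894 TPM in zinc excess, 4982 in control and 6123 in zinc limitation at 21 d. In sum the list was thus highest in zinc limitation.

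The tau-class gene GSTU25-like Sobic.002G361100 stood at 6.28, 451, 78.4, 103, 1704 and 120.0 TPM in zinc excess at 1 h, 2 d, 4 d, 7 d, 14 d and 21 d. In control roots at the same times it stood at 2.24, 2.54, 7.59, 2.69, 7.68 and 5.21 TPM. It was thus far above its control from 2 d on, with the top values at 2 d and 14 d, and the difference at 21 d was 4.28 log2 units. GSTF13-like Sobic.003G164800 followed the same course, with 4.92, 529, 142, 128, 690.2 and 83.0 TPM in zinc excess and 5.04, 9.02, 21.8, 3.26, 16.2 and 5.73 in control (21 d difference 3.64). GSTU18-like Sobic.005G212700 was at 0, 10.5, 6.62, 6.46, 24.0 and 22.9 TPM against 0.0283, 0.214, 1.54, 0, 0.0177 and 0.303. GSTU17-like Sobic.001G317700 differed from these: it stayed between 0.174 and 1.73 TPM in zinc excess up to 14 d and reached 33.2 at 21 d, against 1.00 in control. Genes of this family can be near-identical, and reads may be split between such copies.

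Other detoxification families were mixed. UDP-glycosyltransferases, which attach sugars to hormones and secondary compounds, had 19 higher and 8 lower of 71. UGT84A1-like Sobic.004G071200 was at 28.6 TPM against 2.77 (2.97), after 66.7 at 2 d and 89.0 at 14 d. UGT73B4-like Sobic.006G174600 was at 37.7 against 3.28 and had not exceeded 7.21 TPM in zinc excess before. An IAGLU-like gene, Sobic.003G042900, which glycosylates auxin in maize, was at 19.7 against 1.79. Cytochrome P450 genes had 21 higher and 28 lower of 118, but 26 and 22 after rescaling and 33 higher and 22 lower against the control of 14 d. CYP81D5-like Sobic.001G082400 was at 49.3 TPM against 3.48, after 186 at 2 d. ABC transporters had 8 higher and 6 lower of 50 (15 higher and 5 lower against the control of 14 d), among them ABCG40-like Sobic.003G215600 (23.6 against 5.91 TPM) and ABCB4-like Sobic.003G267700 (26.7 against 7.03). Against the 21 d control their shares were 16.0 and 12.0 percent, beside 7.53 and 11.5 percent over all genes.

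Alternative oxidase, which lets mitochondria pass electrons to oxygen past the main respiratory chain, was higher in both AOX1A-like copies. Sobic.006G202500 stood at 5.69, 29.6, 12.5, 8.74, 115 and 36.8 TPM in zinc excess over the 6 times and at 6.87, 1.01, 1.70, 1.64, 3.47 and 3.95 in control. It was above its control at every time from 2 d. Sobic.006G203000 was at 6.84 against 1.43 TPM. NDB2-like Sobic.007G035700, an external NAD(P)H dehydrogenase of the same pathway, was lower (4.36 against 33.0), but its control value at 14 d was 7.27. The list had 2 higher and 1 lower of 8. Antioxidant enzymes had 3 higher and 4 lower of 30, and 0 higher and 3 lower against the control of 14 d. Against the 21 d control these shares were 10.0 and 13.3 percent, near the 7.53 and 11.5 percent over all genes. MDAR1-like Sobic.007G171000, which recycles ascorbate, was at 72.0 against 20.3 TPM, and APX1-like Sobic.001G410200, the cytosolic ascorbate peroxidase, at 174 against 497. Catalase CAT2-like Sobic.001G517700 was higher against the 21 d control (27.1 against 8.09) and lower than the 14 d control (41.3).

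Sulfate uptake and glutathione synthesis supply the substrate of these transferases. Of 32 genes past the filter 1 was higher and 5 were lower, with a median of 0.01. These shares were 3.13 and 15.6 percent, beside 7.53 and 11.5 percent over all genes. After rescaling the counts were 5 and 3. The root sulfate transporter SULTR1;3-like Sobic.001G153100 was at 4.96 TPM against 25.6, and SULTR3;1-like Sobic.001G496800 at 6.43 against 25.4. APK3-like Sobic.001G465900, an APS kinase that diverts sulfate to sulfated metabolites, was at 5.25 TPM at 21 d and between 21.4 and 36.9 at the earlier zinc-excess times; its control values lay between 22.9 and 31.5. One member, APS2-like Sobic.006G008700, is described as a pseudouridine synthase, which is no enzyme of sulfate assimilation.

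Pathogenesis-related and other defence proteins were higher in zinc excess at 21 d. The list (chitinases, osmotins, PR proteins, glucanases) had 38 higher and 10 lower of 79 and a median of 0.74. Its median difference at the earlier times lay between -0.09 (1 h) and 0.42 (2 d). 19 genes were at least 2-fold above every other solution at 21 d. Set against the other solutions of 21 d in place of the control, the median was 0.22 (zinc limitation), 1.04 (iron excess) and 0.75 (iron limitation).

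A CHIA-like chitinase, Sobic.005G177500, which cuts fungal cell wall chitin, stood at 4.62, 53.7, 129, 71.4, 37.6 and 784 TPM in zinc excess and at 3.78, 154, 219.9, 4.15, 37.6 and 22.7 in control. Zinc excess was thus above control at 7 d and 21 d but below it at 2 d and 4 d, and its 21 d value exceeded all 30 other root columns, the highest of them zinc limitation at 14 d with 566. At 21 d the other solutions were at 24.0 (zinc limitation), 179 (iron excess) and 36.3 TPM (iron limitation). OSM34-like Sobic.008G182900, an osmotin, was at 624 TPM against 40.6, with 97.4 as its highest earlier zinc-excess value. A second osmotin gene, Sobic.003G331700, was at 243 against 14.9. PR4-like Sobic.005G169400, a chitin-binding protein, was at 380.0 against 21.8, and zinc limitation at 21 d was at 215.

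The 15 described genes with the largest positive differences were chosen by zinc excess minus control at 21 d. That choice favours a top rank of the zinc-excess column. Of the 15, 13 had their highest root value of all columns in zinc excess at 21 d. The exceptions were GSTU25-like and KCR1-like Sobic.006G125800, a reductase of fatty acid elongation, at 373 TPM against 7.62 but at 456 in zinc limitation at 14 d. Of the 13, the next highest column was one of zinc limitation in 12, at 14 d in 7, at 4 d in 2 and at 21 d in 3. An early nodulin-related gene, Sobic.010G031400, was at 386 TPM against 9.45, and 85.7 was its highest value elsewhere. A calcium-binding EF-hand gene, Sobic.007G214400, stood at 913 against 24.5, with 233 in zinc limitation at 4 d. A pectin lyase-like gene, Sobic.003G141800, was at 469 against 20.0, with 194 in zinc limitation at 14 d. A granulin repeat cysteine protease, Sobic.010G238900, was at 44.1 against 1.06, and 31.1 in zinc limitation at 14 d. A DUF538 gene, Sobic.009G239800, was at 80.6 against 1.63, and 45.4 in zinc limitation at 4 d. RHS10-like Sobic.001G424200, named for a root-hair-specific receptor-like kinase, was at 79.1 against 1.81, and 47.2 in zinc limitation at 14 d. Genes described only as expressed proteins were among them too: Sobic.009G076700 at 163 against 1.22, its next value 22.03, and Sobic.010G036200 at 499 against 23.8, with 153 in zinc limitation at 14 d. The undescribed Sobic.001G233200 was at 1116 TPM against 53.6.

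**Figure D2:**
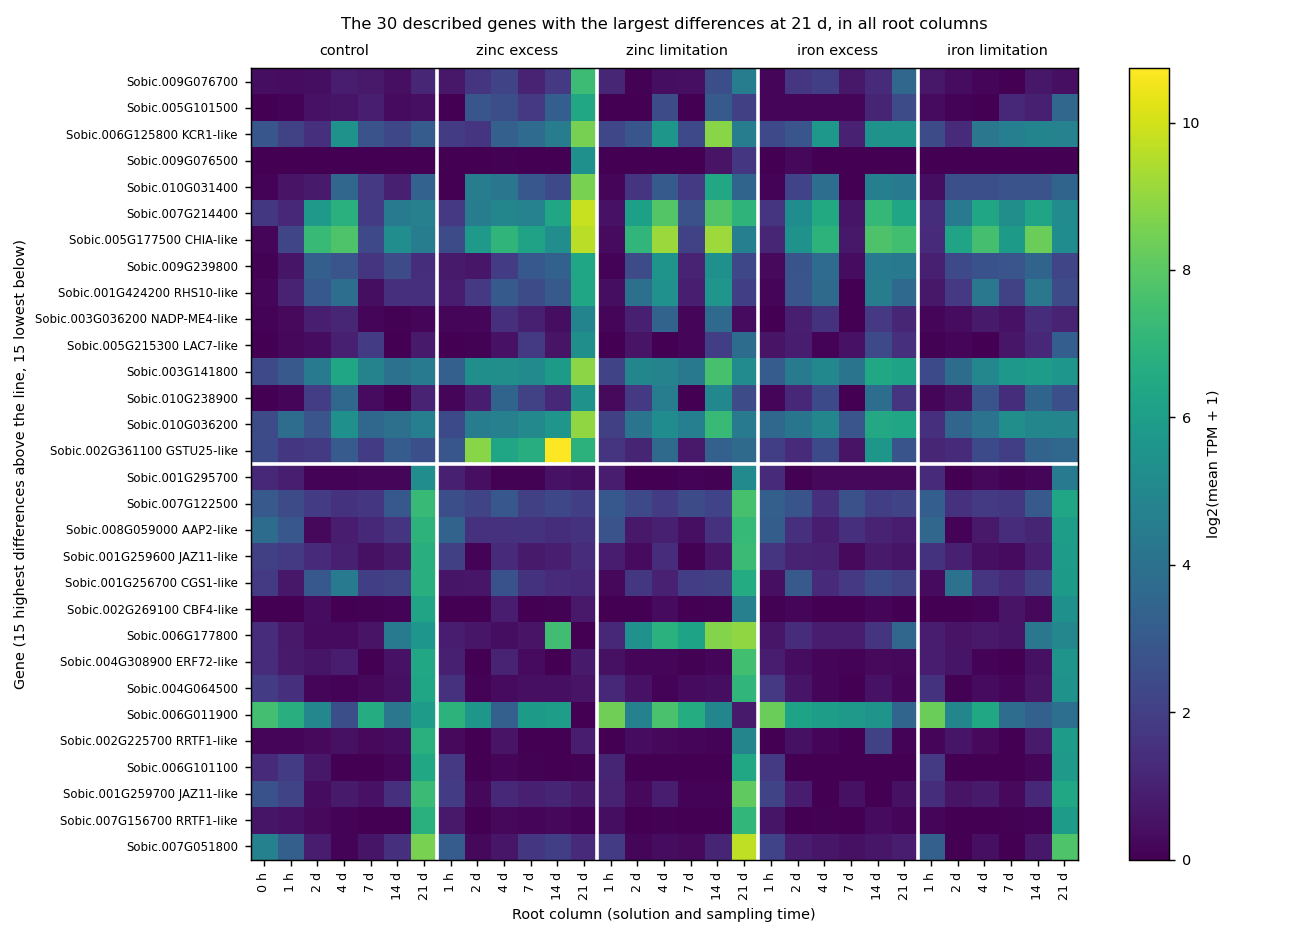
Mean TPM, as log2(mean TPM + 1), of the 15 described genes with the largest positive (above the white line) and negative (below) differences at 21 d, in all 31 root columns grouped by solution and ordered by sampling time. Above the line 13 of 15 genes have their top value in zinc excess at 21 d. Below it most genes are bright at 21 d in control, zinc limitation and iron limitation. They are dark in zinc excess, in iron excess and in the earlier columns. Choosing genes by the 21 d difference favours high zinc-excess values above the line and high control values below it.

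Aquaporins, the water channels, had 11 higher and 5 lower of 46, with a median of 0.26. The plasma membrane channels named PIP2;2-like led them: Sobic.002G125300 stood at 55.6, 37.1, 64.5, 57.7, 136 and 965 TPM in zinc excess and at 10.8, 8.31, 39.4, 85.0, 25.5 and 61.3 in control. The value at 21 d was the highest of all root columns, of which the next was 259.6. Sobic.002G125200 was at 867 against 83.2, and Sobic.002G125000 at 451 against 59.9, and iron excess at 21 d held 204, 187 and 119 TPM of the 3. These near-identical names may share reads. One list member with a large difference, SIP2-like Sobic.002G075800 (93.1 against 9.88), is described as seed imbibition protein 2 and is no aquaporin.

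The abscisic acid and water stress list had 16 higher and 11 lower of 76, with a median of 0.09. Among the higher ones were 2 copies named after the abscisic acid receptor PYL6. Sobic.001G401200 stood at 21.6, 62.3, 138, 381, 696 and 1627 TPM in zinc excess and at 72.8, 120.4, 264, 227, 51.2 and 216 in control. Zinc excess was below control up to 4 d and above it from 7 d. Sobic.001G400900 was at 1257 against 169, with 411 in zinc limitation. Lower were a late embryogenesis abundant protein gene, Sobic.005G080600 (22.1 against 172, and 182 in the 14 d control), and ERD7-like Sobic.001G440200 (12.6 against 109, but 11.4 in the 14 d control).

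The phenylpropanoid and lignin list had 13 higher and 11 lower of 71, 18 and 10 after rescaling, and 22 higher and 3 lower against the control of 14 d. CCR1-like Sobic.004G340200, a cinnamoyl-CoA reductase at the entry to lignin, was at 287 TPM against 21.6, while the 2 d and 4 d controls were at 468 and 613. DFR-like Sobic.004G050200, a flavonoid reductase, was at 112 against 9.80, and chalcone synthase CHS-like Sobic.002G310600 at 27.8 against 4.44. HCT-like Sobic.010G066601 was lower than the 21 d control (9.17 against 53.8) and higher than that of 14 d (4.88).

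Laccases and dirigent proteins, which couple phenolic radicals in the wall, had 10 higher and 16 lower of 41. The dirigent-like Sobic.005G101500 was at 82.7 TPM against 0.362, and laccase LAC7-like Sobic.005G215300 at 39.4 against 0.707. Another dirigent-like gene, Sobic.006G011900, was at 122, 51.1, 8.89, 57.5, 61.7 and 0 TPM over the 6 zinc-excess times, against 106, 30.5, 5.01, 99.6, 18.1 and 59.2 in control. It was listed at 0 in zinc excess at 21 d, and zinc limitation at 21 d was close to that, at 0.712. Class III peroxidases, the secreted wall peroxidases, had 18 higher and 41 lower of 97. RCI3-like Sobic.009G186500 stood at 122, 113, 51.5, 96.2, 143 and 4.45 TPM in zinc excess and 154, 16.5, 29.2, 148, 122 and 122 in control, so that the value at 21 d was the lowest of all root columns. The other solutions at 21 d held 71.2, 72.4 and 79.2 TPM. Peroxidase Sobic.003G152100 was at 211 against 19.4, and peroxidase Sobic.001G277000 at 33.8 against 1.30. The latter was also high in zinc limitation, with 58.7 TPM at 4 d and 33.2 at 14 d, and in the controls of 2 d and 4 d (21.1 and 18.6).

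Histone and cell cycle transcripts were lower in zinc excess at 21 d. Core histones package newly made DNA and are made mostly during DNA replication. Of 43 histone genes past the filter, 29 were at least 2-fold lower and 0 higher, with a median of -1.46. After rescaling 26 were lower, and against the control of 14 d 36. The whole list of 56 summed to 4665 TPM in zinc excess, 10725 in control at 21 d and 13780 in control at 14 d. The medians against the other solutions at 21 d were -1.22 (zinc limitation), -1.07 (iron excess) and -1.01 (iron limitation), and 19 genes were at least 2-fold below every one of them and the control. In bulk roots, fewer dividing cells and less RNA of these genes per cell cannot be told apart.

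Single histone genes show the course. A histone gene, Sobic.002G210500, stood at 253, 219.6, 79.6, 166, 229.9 and 37.0 TPM in zinc excess and 282, 18.3, 46.3, 275, 291 and 176 in control over the 6 times. Zinc excess was above the low controls of 2 d and 4 d, below control at 1 h, 7 d and 14 d, and furthest below it at 21 d. HTA12-like Sobic.002G276000, an H2A histone, was at 64.4 TPM against 271, after 316 in zinc excess at 14 d.

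The cell cycle list had 31 lower and 0 higher of 97, with a median of -0.53; 25 were lower after rescaling and 16 lay at least 2-fold below every other solution. CYCB1;2-like Sobic.003G328500, a B-type cyclin of mitosis, was at 8.63 TPM against 54.8, with 43.2, 48.1 and 36.4 in the other solutions. CYCB2;3-like Sobic.010G274000 was at 3.53 against 22.5, kinesin ATK5-like Sobic.002G004100 at 1.85 against 13.3, and kinesin Sobic.001G177900 at 2.49 against 17.5. At 14 d CYCB1;2-like had been at 53.0 in zinc excess against 47.1. Cytosolic ribosomal protein genes had a median of -0.49 and 8 higher and 13 lower of 287. Against the control of 14 d they had 9 higher and 44 lower, with a median of -0.66. The whole list of 405 summed to 56034 TPM in zinc excess, 80515 in control at 21 d and 95632 in control at 14 d.

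Genes of cell expansion were lower as well. Expansins and xyloglucan-modifying enzymes loosen the wall of growing cells. Of 62 past the filter 30 were lower and 5 higher, with a median of -0.95 against the control of 21 d and -1.05 against that of 14 d. EXPA17-like Sobic.003G059900 was at 0.0753 TPM in zinc excess and 14.1 in control, with 2.98 and 16.5 at 14 d. EXPA11-like Sobic.001G238200 was at 1.51 against 19.3. In the opposite direction, XTH26-like Sobic.004G127200 was at 21.98 against 0.445, above all 30 other root columns. Next was zinc limitation at 14 d, with 13.0. TCH4-like Sobic.010G246600, a touch-responsive enzyme, was likewise higher, at 130.3 against 14.4, with 513 in the 2 d control.

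**Figure D3:**
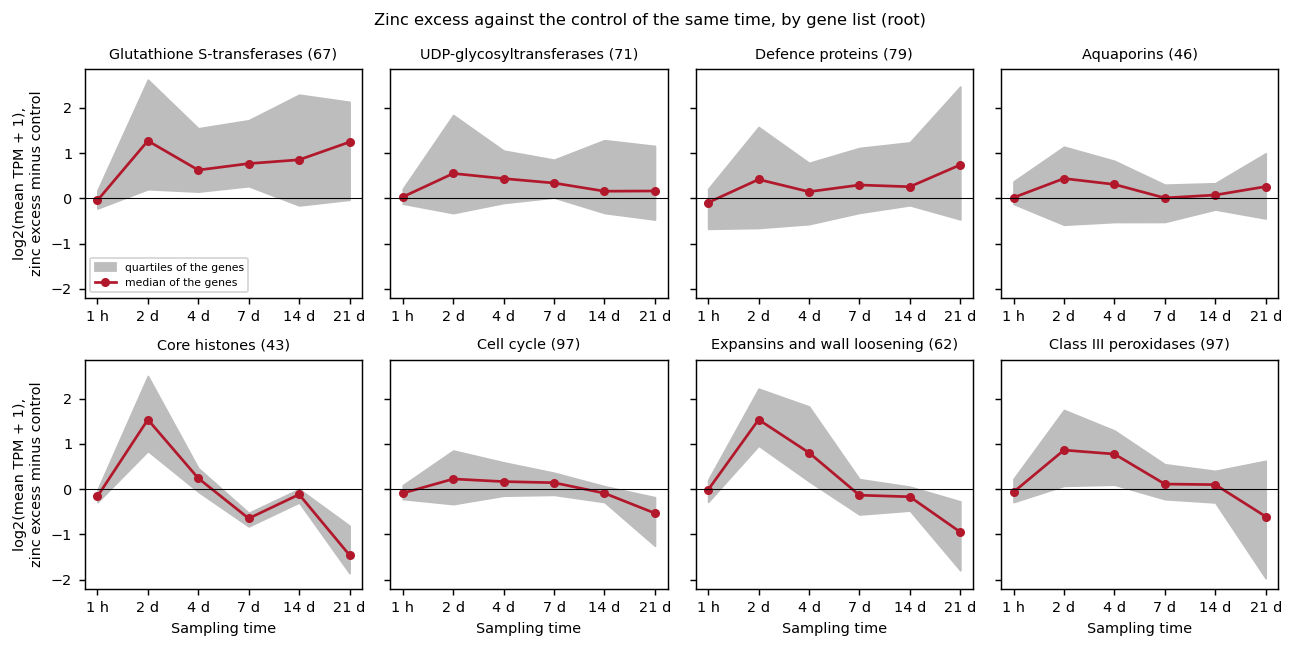
Difference between zinc excess and control of the same time, in log2(mean TPM + 1), for 8 gene lists over the 6 sampling times in root; points are the median over the genes of a list (number in parentheses) and the grey band spans their quartiles. Core histones go from 1.54 at 2 d to -1.46 at 21 d and expansins from 1.54 to -0.95, while glutathione S-transferases stay above 0 from 2 d on. The controls of 2 d and 4 d stood low in histones and expansins. The histone list summed to 5204 TPM in control at 2 d. In zinc excess it summed to 10105.5, 10348, 5751, 8542, 13276 and 4665 TPM over the 6 times.

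Root hair and vascular genes are given as levels, with no cell type assigned. Of 15 root hair genes 5 were lower and 2 higher: LRX1-like Sobic.004G035800, a wall protein of growing root hairs, was at 16.4 TPM against 68.5 and 73.9 in the 14 d control, and MRH1-like Sobic.009G102800 at 5.97 against 22.1. Secondary wall and xylem genes had 12 lower and 1 higher of 27, and 2 higher and 8 lower against the control of 14 d. CESA4-like Sobic.001G224300, a cellulose synthase of xylem walls, stood at 14.3 TPM in zinc excess, 66.6 in control, 128 in zinc limitation, 16.1 in iron excess and 43.8 in iron limitation. Its controls from 0 h to 14 d lay between 13.4 and 34.6, so zinc excess and iron excess were near the earlier levels and the 3 other columns above them. CESA7-like Sobic.002G205500 showed the same, with 15.6 TPM against 69.9, iron excess at 18.5 and earlier controls of 14.6 to 32.9. IRX10-like Sobic.003G410800, a gene of xylan synthesis, was at 15.6 against 97.5, with earlier controls of 5.31 to 40.1. Casparian strip and endodermis genes had 4 higher and 8 lower of 33, suberin genes 0 and 0 of 8, and phloem genes 2 higher and 0 lower of 14. Both of the higher phloem genes are phloem lectins, PP2-B10-like Sobic.005G119100 at 26.3 against 1.71 TPM and PP2-B1-like Sobic.004G340900 at 30.2 against 12.0.

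The largest negative differences came with high values in the control of 21 d, which choosing genes by this difference favours. Of the 15 described genes with the lowest differences (-7.25 to -4.85), 8 were under 5 TPM in every earlier root control, 13 were under 5 TPM in iron excess at 21 d, and 14 and 13 were at 20 TPM or more in zinc limitation and iron limitation at 21 d. Only 2 had their lowest root value of all columns in zinc excess at 21 d. They were the dirigent-like Sobic.006G011900 above and a prolyl oligopeptidase gene, Sobic.006G177800 (0.0170 TPM against 48.4). The latter was at 0.557, 0.316 and 0.480 TPM in zinc excess at 2 d, 4 d and 7 d, against 0.262, 0.239 and 0.486 in control. It was at 172 in the zinc-excess mean of 14 d, which rests on 2 libraries. In zinc limitation it stood at 41.8, 114, 74.9, 433 and 490 TPM from 2 d to 21 d.

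JAZ proteins repress jasmonate responses and are themselves induced by jasmonate, the hormone of wounding. JAZ11-like Sobic.001G259700 stood at 0.704 TPM in zinc excess, 159 in control, 274 in zinc limitation, 0.413 in iron excess and 83.8 in iron limitation at 21 d. Its controls from 0 h to 14 d lay between 0.298 and 5.46 TPM, so zinc excess was within the earlier range and the 21 d control was not. The second JAZ11-like copy, Sobic.001G259600, was at 1.55 against 104. CYP94C1-like Sobic.008G036000, which breaks down jasmonate, was at 3.14 against 113 and at 3.80 in the control of 14 d. Of 46 jasmonate genes 17 were lower and 5 higher. Against the control of 14 d the counts turned to 5 lower and 11 higher.

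Several transcription factors were among these genes. A bHLH gene, Sobic.007G051800, had the lowest difference of all, -7.25, with 1.51 TPM in zinc excess and 379 in control; zinc limitation was at 824, iron excess at 0.742 and iron limitation at 219. RRTF1-like Sobic.007G156700, a redox-responsive AP2/ERF factor, was at 0.0820 against 113, with 0.110 in iron excess and 0 in the 14 d control. CBF4-like Sobic.002G269100, of the drought and cold DREB1 family, was at 0.650 against 75.8 and at 0.0910 in the 14 d control. ERF72-like Sobic.004G308900 was at 0.692 against 84.7, with earlier controls of at most 1.55. All 4 were thus within their earlier control range or close to it in zinc excess, and far above it in control. AP2/ERF factors had 29 lower and 12 higher of 103 against the 21 d control, and 19 and 15 against that of 14 d. WRKY factors went from 8 lower and 9 higher of 57 to 1 and 21. WRKY40-like Sobic.010G209100 was at 4.72 against 42.0 at 21 d and 0.969 in the 14 d control. WRKY70-like Sobic.003G337900 was at 1.49 against 12.0.

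Part of the ZIP zinc transporters were lower. Of 18 past the filter, 7 were at least 2-fold lower and 0 higher, with a median of -0.40; after rescaling 5 were lower and 1 higher. ZIP5-like Sobic.007G064900 stood at 12.5, 1.01, 3.37, 2.75, 170.4 and 1.90 TPM in zinc excess over the 6 times and at 14.3, 24.9, 24.3, 14.4, 23.9 and 52.2 in control. At 21 d zinc limitation was at 249, iron excess at 37.2 and iron limitation at 56.9. Zinc excess was thus below control at 2 d, 4 d, 7 d and 21 d, and above it at 14 d. ZIP4-like Sobic.009G073100 stood at 16.0, 10.0, 17.2, 13.2, 78.2 and 10.5 in zinc excess and 21.3, 44.3, 48.4, 33.2, 44.7 and 71.0 in control. It shows the same reversal at 14 d.

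The other ZIP4-like and ZIP1-like genes were also lower at 21 d and higher at 14 d. The ZIP4-like Sobic.010G171300 was at 1.32 TPM against 9.72 at 21 d and 34.9 against 4.98 at 14 d. ZIP1-like Sobic.007G075700 was at 0.621 against 7.00 at 21 d and 60.1 against 12.2. ZIP1-like Sobic.002G083200 was at 9.21 against 20.8 and 31.2 against 11.7. The same holds for Sobic.009G170500, annotated with both ZIP5 and ZIP1, at 1.74 against 6.01 and 21.98 against 4.68. The zinc-excess mean at 14 d rests on 2 libraries, and of the zinc-excess times it also held the highest values of GSTU25-like and GSTF13-like (1704 and 690.2 TPM). In zinc limitation at 14 d those 2 genes were at 8.78 and 13.9. What the column at 14 d holds was not tested.

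The ZIP10-like genes went both ways. ZIP10-like Sobic.001G142900 was at 279.6 TPM against 200.4, with 979 in iron limitation, and ZIP10-like Sobic.001G156800 at 31.1 against 15.5, with 1.42 in iron excess and 90.02 in iron limitation. Another ZIP10-like gene, Sobic.001G142800, was at 12.6 against 27.9. The 9 remaining members past the filter lay between -0.44 (ZIP11-like Sobic.001G339600, 41.6 against 56.9 TPM) and 0.24 (ZIP6-like Sobic.009G057700). Among these 9, VPS41-like Sobic.006G264000 and a clathrin adaptor gene with the symbol ZIP4, Sobic.004G017300, are no zinc transporters; they are on the list through their symbols.

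**Figure D4:**
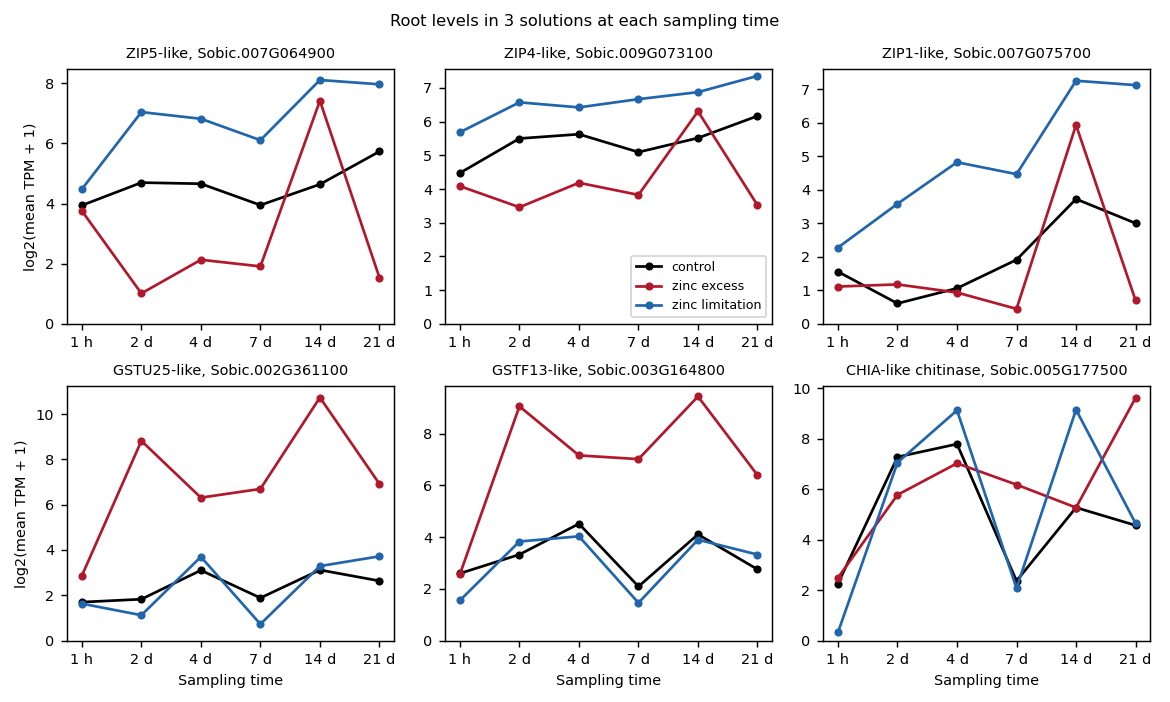
Levels of 3 ZIP transporters, 2 glutathione S-transferases and a chitinase in root, as log2(mean TPM + 1), over 6 sampling times in control (black), zinc excess (red) and zinc limitation (blue); each point is 1 deposited mean. The ZIP genes in zinc excess lie under control at 21 d and above it at 14 d, the transferases lie above both other solutions from 2 d, and the chitinase has its top value in zinc excess at 21 d.

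Most carriers that remove zinc from the cytosol were within 2-fold of control. Of 21 past the filter 1 was higher and 3 were lower (median -0.36). These shares were 4.76 and 14.3 percent, beside 7.53 and 11.5 percent over all genes. The vacuolar carrier MTPA1-like Sobic.009G029500 was at 7.15 TPM against 10.1 and lay below all 30 other root columns. The xylem-loading pump HMA2-like Sobic.010G250900 was at 150.4 against 194, and a second HMA2-like gene, Sobic.002G083000, at 2.11 against 5.83. HMA1-like Sobic.010G240500 was at 7.44 against 12.2, and the copper pump HMA5-like Sobic.006G173800 at 35.9 against 48.4.

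ZIF1 of Arabidopsis moves the metal chelator nicotianamine into the vacuole. Its relatives went both ways: ZIFL1-like Sobic.005G024800 stood at 3.55, 12.1, 11.7, 9.14, 20.4 and 8.33 TPM in zinc excess and 4.73, 1.44, 4.26, 2.62, 3.35 and 3.62 in control, above control from 2 d. ZIFL2-like Sobic.003G125701 was at 5.42 against 28.2, and ZIFL1-like Sobic.005G097900 at 2.41 against 8.47. A gene annotated with ZIFL2 and ZIFL1, Sobic.008G084800, had reached 703 TPM at 2 d and was at 64.3 against 44.1 at 21 d. PCR2-like Sobic.004G192100, a small membrane protein known in Arabidopsis for zinc export, was at 49.3 TPM against 25.1 and exceeded all 30 other root columns, just short of 2-fold (0.95). The other PCR2-like gene, Sobic.001G024500, was at 115 against 83.4, with 185 in zinc limitation.

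Most genes of the metal chelation list were within 2-fold of control at 21 d, but many of its members are no chelator genes. Of 17 past the filter 1 was higher and 1 lower (median 0.01). That median is the value of TOM3-like Sobic.001G313500, named after a tobamovirus multiplication protein, so it does not describe metal chelation. The higher gene was the metallothionein MT2A-like Sobic.003G071901, a cysteine-rich metal binder, at 58.5 TPM against 20.2 and above all 30 other root columns. MT2B-like Sobic.005G228700, by far the most abundant of the list, was at 16003 against 11744. Nicotianamine synthase NAS4-like Sobic.001G395900 stood at 1394, 2771, 1607, 822, 1319 and 253 TPM in zinc excess and 1970.0, 194, 215, 532, 946 and 344 in control, above control from 2 d to 14 d and below it at 1 h and 21 d. Phytochelatin synthase PCS1-like Sobic.003G024200 was at 16.1 against 15.8. The lower gene, Sobic.004G280200, and 3 others are named after the tobamovirus multiplication proteins TOM1 and TOM3, not the phytosiderophore exporter TOM1 of rice; 2 more are mitochondrial import proteins, and 3 CAD1-like genes are described as cinnamyl-alcohol dehydrogenases and 1 as a MAC/perforin protein. The methionine salvage and nicotianamine precursor list had 0 higher and 1 lower of 15, the lower one being the sugar transporter gene MTN3-like Sobic.008G094400.

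Iron regulators were mostly within 2-fold of control in root, while several of them differed more in the leaf of the same plants. Of 18 regulators past the filter 1 was higher and 0 lower. PYE-like Sobic.001G355600, a bHLH factor of the iron deficiency response, was at 86.5 TPM against 41.8 (1.03), but the control of 14 d was at 108. In the leaf at 21 d it was at 115 against 6.46. bHLH38-like Sobic.003G428800 stood at 251 against 178 in root and at 316 against 4.64 in leaf; iron limitation roots held 805. The BTS-like iron sensor Sobic.009G222200 was at 31.6 against 15.4 in root and 147 against 15.2 in leaf. FIT-like Sobic.006G047200, the regulator of iron uptake in Arabidopsis roots, was at 53.5 against 41.6. ILR3-like Sobic.009G160000 was at 54.2 against 101. The remaining regulators lay between -0.75 (Sobic.002G378900, a helicase and IBR domain protein) and 0.22 (ILR3-like Sobic.004G012100).

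The iron uptake and transport list had 3 higher and 5 lower of 33, and 1 higher and 7 lower against the control of 14 d. Against the 21 d control the shares were 9.09 and 15.2 percent, beside 7.53 and 11.5 percent over all genes. OPT3-like Sobic.001G087700, a phloem iron transporter, was at 188 TPM against 89.2, with 159 in the 14 d control. ORG1-like Sobic.003G241900, an iron-responsive kinase, was at 149.6 against 68.7 and at 241 in the 14 d control, so that its direction turned with the control. YSL7-like Sobic.006G152500 was at 7.09 against 1.42. The vacuolar iron carrier VIT1-like Sobic.002G194600 was at 3.84 against 18.5. OPT5-like Sobic.007G221400 (1.10 against 5.85), OPT7-like Sobic.010G017100 (2.83 against 10.0) and OPT4-like Sobic.004G273500 (3.96 against 12.5) were each below all 30 other root columns. YSL7-like Sobic.004G224000 was at 12.0 against 27.8.

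Ferritins were near control in root and lower in leaf. FER4-like Sobic.008G004800, the iron store of plastids, was at 10.8 TPM against 13.7 in root and at 75.7 against 332 in leaf. FER4-like Sobic.005G004500 was at 14.4 against 13.8 in root and 52.4 against 139.6 in leaf. YSL3-like Sobic.004G299500 was at 100.0 against 142. NRAMP1-like Sobic.002G095400 was at 20.0 against 33.9 and IREG2-like Sobic.010G168400 at 54.4 against 44.3. The 2 TSO2-like genes of this list, Sobic.006G134900 and Sobic.010G106300, encode ribonucleotide reductase subunits and not ferritins.

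Hormone and regulator lists were mixed. The shares over all genes were 7.53 percent higher and 11.5 percent lower. Those of the ethylene (7.14 and 10.7 percent) and cytokinin lists (7.14 and 14.3 percent) were near them. Gibberellin genes had 3 higher and 2 lower of 13: GA2OX1-like Sobic.003G300800, which inactivates gibberellin, was at 269 TPM against 44.0, while the 2 d and 4 d controls were at 162 and 157. GA2OX8-like Sobic.004G222500 was at 5.26 against 27.7, but 0.585 in the 14 d control. Auxin genes had 11 higher and 16 lower of 91, among them the influx carrier LAX2-like Sobic.005G052500 (2.00 against 12.7) and the synthesis enzyme YUC8-like Sobic.006G012200 (3.70 against 20.4). Ethylene genes had 2 higher and 3 lower of 28. The higher ones were named ACO4-like, the last enzyme of ethylene synthesis (Sobic.004G313100 at 35.02 against 8.07, Sobic.002G221900 at 14.4 against 1.75), and 2 of the 3 lower ones, ACO3-like Sobic.006G000100 (49.6 against 148) and Sobic.001G512800 (33.9 against 85.8), are aconitases. Cytokinin genes had 2 higher and 4 lower of 28 (6 higher and 2 lower against the control of 14 d), with the cytokinin oxidase CKX1-like Sobic.003G421100 at 17.0 against 2.13. At 21 d zinc limitation held 17.7 TPM of CKX1-like and 48.8 of ACO4-like Sobic.004G313100, in both more than zinc excess. The other ACO4-like gene, Sobic.002G221900, was at 5.97 there.

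NAC factors had 11 higher and 6 lower of 48. NAC042-like Sobic.008G183900 was at 26.5 TPM against 2.09, and ANAC087-like Sobic.005G018700 at 68.5 against 9.34. NAC074-like Sobic.004G219500 was at 1.10 against 16.6 and had been between 13.8 and 27.1 in zinc excess before. MYB factors had 7 higher and 18 lower of 76, with MYB61-like Sobic.009G036500 at 4.50 against 21.3. Heat shock proteins and factors had 14 higher and 11 lower of 109, among them an HSP20-like gene, Sobic.001G426000 (484 against 66.4). Phosphate genes had 5 higher and 1 lower of 58 (14 higher and 2 lower against the control of 14 d). Against the 21 d control these shares were 8.62 and 1.72 percent, beside 7.53 and 11.5 percent over all genes. Among them was SPX3-like Sobic.003G183600, a phosphate sensor, at 106 against 40.6 and 101 in zinc limitation. Nitrate and ammonium genes had 3 and 5 of 28, sucrose and trehalose genes 6 and 10 of 59, senescence and autophagy genes 2 and 5 of 56, and photosystem genes 0 and 6 of 21. Against the control of 14 d the photosystem genes had 2 higher and 1 lower.

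The genes of 21 d overlapped with those of 7 d and 14 d on the higher side. These times share no column with 21 d. At 1 h 210 genes were higher (1.31 percent) and 134 lower (0.833 percent). Against the controls that stood apart, 3355 were higher (21.5 percent) and 1934 lower (12.4 percent) at 2 d, and 1746 (11 percent) and 830 (5.24 percent) at 4 d. At 7 d 556 genes were higher (3.49 percent) and 248 lower (1.55 percent), and at 14 d 740 (4.65 percent) and 358 (2.25 percent). Of the higher genes at 7 d 52.2 percent were also higher at 21 d, and of those at 14 d 51.1 percent. These are 23.4 and 30.5 percent of the higher genes of 21 d. Of the lower genes of 7 d and 14 d 22.98 and 18.7 percent were lower at 21 d, which are 3.02 and 3.55 percent of the lower genes of 21 d. Most genes lower at 21 d were therefore not 2-fold lower at 7 d or 14 d. At 2 d, where the control stood apart, 708 of the lower genes of 21 d were at least 2-fold higher (37.5 percent of them) and 110 lower.

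The lists were also set beside those of the leaf of the same plants. At 21 d the leaf had 1800 higher (12.9 percent) and 369 lower genes (2.64 percent). Of the higher root genes 19.0 percent were higher in the leaf too, which is 13.1 percent of the higher leaf genes. Among them was OSM34-like Sobic.008G182900, at 380.1 TPM against 76.2 in leaf. Of the lower root genes 2.01 percent were lower in the leaf, which is 10.3 percent of the lower leaf genes, and 5.93 percent (112 genes) were higher there.

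A test was possible for whether zinc excess at 21 d departed from what time and solution predict together. It was fitted with limma over the 30 root columns after 0 h and 20481 genes, and its errors measure the spread between columns and not between plants. It found 17 genes higher (0.083 percent) and 4 lower (0.0195 percent) at a Benjamini-Hochberg adjusted p of at most 0.05. At an unadjusted p under 0.05 were 3041 genes. The count rests on the filter: among genes with a mean of at least 5 TPM, 0 were higher and 1 was lower (2162 at an unadjusted p under 0.05). The 10 upward genes named here lie under that mean, so that filter does not test them. The count of lower genes also moved with the columns used, to 11 without 2 d, 1 without 14 d or without zinc excess at 14 d, and 11 without iron excess at 7 d. With each column rescaled to the average root column, 61 genes were higher and 17 lower.

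Of the 17 higher genes, 6 reach the filter only through the tested column, so their test is void and they are given as values alone. Filtered on the other 29 columns, 20449 genes were tested, with 10 higher and 3 lower at an adjusted p of at most 0.05 and 3018 genes at an unadjusted p under 0.05; this filter was chosen after seeing the data. Among the 6, the undescribed Sobic.003G171032 stood at 54.6 TPM in zinc excess at 21 d and at no more than 0.104 in any other root column. Sobic.009G076500, described as an expressed protein, was at 40.9 and at no more than 2.21 elsewhere. An early nodulin-related gene, Sobic.010G031600, was at 31.0 TPM against 1.85 in control, and an alpha/beta-hydrolase gene, Sobic.003G348700, at 18.4 against 0.549.

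The other 6 named upward genes pass the filter without the tested column and were called with either filter. The alpha/beta-hydrolase gene Sobic.003G348600 departed by 4.21 ± 0.70 (adjusted p = 0.00951), with 34.3 TPM in zinc excess at 21 d and 1.61 in control. Its next highest root value was 18.0 TPM, in zinc limitation at 4 d. The undescribed Sobic.002G207100 was at 21.5 against 0.309 (4.00 ± 0.77, adjusted p = 0.0303), and a zinc finger gene, Sobic.004G295000, at 10.5 against 0.422 (3.55 ± 0.53, adjusted p = 0.00293). Both were higher there than in any other root column.

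NADP-ME4-like Sobic.003G036200, a malic enzyme, departed by 4.45 ± 0.86 (adjusted p = 0.0303). It was at 27.5 TPM in zinc-excess roots and 0.0913 in control roots, and at 2667 and 3353 TPM in the leaves. Zinc-limitation roots held 9.84 TPM of it at 4 d and 11.9 at 14 d. A DUF3411 gene, Sobic.003G431900, was likewise a leaf gene (759 and 1226 TPM in leaf) and was at 18.5 against 1.49 in root (3.30 ± 0.55, adjusted p = 0.00951). Galactinol synthase GolS1-like Sobic.001G391300, of the raffinose pathway of stress protection, was at 58.7 against 5.36 (3.13 ± 0.53, adjusted p = 0.0111). The photosystem list, whose sums were given above, was at 349 TPM in the control roots of 14 d. Among its members, PSBO2-like Sobic.010G241000 was at 4.52 TPM in zinc-excess and 14.0 in control roots, with 4126 and 7203 in the leaves, and PSBR-like Sobic.007G071500 at 4.75 and 11.9; the controls of 14 d held 4.73 and 1.71. The part of leaf transcripts in these results was not tested.

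The 4 genes lower than the fit were Sobic.004G088000, an HSP20-like chaperone, APK3-like and a MYB86-like factor. Sobic.004G088000, described as an expressed protein, stood at 3.76 TPM in zinc excess at 21 d and between 28.2 and 107 in the other 30 root columns (-2.67 ± 0.49, adjusted p = 0.0237). HSP20-like Sobic.001G148600 was at 7.69, against 12.1 to 50.4 elsewhere (-2.32 ± 0.46, adjusted p = 0.0445, and 0.0622 with the filter on the other 29 columns; the range over all its alternatives was 0.00783 to 0.15). APK3-like Sobic.001G465900 was at 5.25, against 14.1 to 36.9 (-1.94 ± 0.32, adjusted p = 0.00951). MYB86-like Sobic.003G183800 was at 1.48, against 3.47 to 8.17 (-1.64 ± 0.31, adjusted p = 0.0303). All 4 were thus lower in zinc excess at 21 d than in any other root column.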

How the data were processed

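Poly-A selected, directional, paired-end libraries of sorghum roots and leaves are described in the labels. The submitters' processing notes name DRAGEN, while its release, the build of the genome and the gene models were not given in the sources used here. Mean TPM was deposited by the authors in 1 table of 57 columns, 1 per tissue, solution and time. The authors' values in 8 of the deposited columns are recorded as signal, since repeated rows lift their sums furthest above 1000000; they are mean TPM too. Of 34924 rows 795 repeat a gene and were dropped; each column then sums to 1000000. Read depth cannot be had from TPM, so it is unknown, and neither counting intervals nor floors are given. By its decimals each of the 2 means compared at 21 d rests on 3 libraries; 3 other means differ from the labels in that number. The replicates are 3 plants a group in the labels, and only their mean was used here.

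Differences are log2(mean TPM + 1), with no test for a single time, and a gene counts as higher or lower past 2-fold. The departure test used limma 3.58.1 (R 4.3.3, trend on) on genes with a mean of at least 1 TPM over the root columns, the tested one included, with time, solution and an indicator of zinc excess at 21 d, two-sided; tables were made with Python 3.11.15 and pandas 2.3.3. Tested on simulated data of 20481 genes, the departure fit recovered 16, 66 and 89 percent of 100 genes each shifted by 1, 2 and 4 log2 units, with 7 false calls of 178. In the simulation time and solution effects were additive, the noise was independent and normal, and the filter was not applied again. It therefore does not measure false calls from columns that stand apart or from the filter. The 43 gene lists match the Arabidopsis symbols and descriptions of the deposited annotation, and "-like" marks the closest Arabidopsis gene; 15681 of the 16473 members have a description. Members and lists were chosen with earlier results of these data known. Named are the 15 largest differences each way among described genes, at most 2 undescribed genes each way, up to 4 members of each list past 2-fold, by size, all members of the ZIP, zinc efflux, chelation and iron lists, and the 10 largest departures each way. Alternatives varied pseudocount, filter, scaling, control, times and columns. Genome coordinates and sequences are not used here.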

Additional observations from a re-analysis of the deposited data

Results flagged for a closer look

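The departure test marks genes whose value in zinc excess at 21 d differed from what time and solution, fitted over all solutions, predict together. That difference was tested by limma. The tested value is 1 deposited mean, and the errors measure the spread between columns and not between plants. Among the 10 largest upward departures, those that pass the filter without the tested column were Sobic.003G036200 (4.45 log2 units), Sobic.003G348600 (4.21), Sobic.002G207100 (4.00), Sobic.004G295000 (3.55), Sobic.003G431900 (3.30) and Sobic.001G391300 (3.13). All 4 downward departures were Sobic.004G088000 (-2.67), Sobic.001G148600 (-2.32), Sobic.001G465900 (-1.94) and Sobic.003G183800 (-1.64).

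APK3-like Sobic.001G465900 was called under 15 of 16 alternatives. The zinc finger gene Sobic.004G295000 was called under 14 of 15; it stood at 10.5 TPM in root zinc excess at 21 d and 33.3 against 2.35 in the leaf. The alpha/beta-hydrolase gene Sobic.003G348600, at 34.3 TPM, was called under 13 of 15, as was GolS1-like Sobic.001G391300. The other upward genes were called less often: Sobic.003G431900 under 12 of 15, Sobic.003G036200 under 10 of 15 and Sobic.002G207100 under 9 of 15. Of the downward genes, Sobic.004G088000 was called under 12 of 16. HSP20-like Sobic.001G148600 was called under 8 of 16 and MYB86-like Sobic.003G183800 under 7 of 16.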

How the results depend on the processing

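No paired analysis was possible because only the authors' means over each group's libraries were deposited and no replicate has a column, so no replicate could be left out either and times were left out instead. The counts of genes past 2-fold moved with the pseudocount (1119 lower at a pseudocount of 5) and the filter (723 higher and 952 lower at 20 TPM). Of 194 named genes past 2-fold, 169 kept it with a pseudocount of 5, 186 with the zinc-excess column rescaled, 175 against the mean of the controls at 14 d and 21 d, 183 against the mean of the other 4 root columns at 21 d, and none of them reversed in these settings. Against the control of 14 d, an alternative chosen after seeing the data, 134 of the 163 that pass the filter with it kept it and 11 reversed: Sobic.001G355600 (-0.32), Sobic.001G440200 (0.14), Sobic.001G517700 (-0.59), Sobic.003G241900 (-0.68), Sobic.003G416800 (0.82), Sobic.004G219800 (1.00), Sobic.004G222500 (1.98), Sobic.004G283300 (1.00), Sobic.010G066601 (0.79), Sobic.010G267600 (0.0333) and Sobic.K020400 (-0.89). The counts of the departure test (17 higher, 4 lower) were 6 and 16 with a pseudocount of 0.1, 463 and 86 with no filter, 0 and 1 at a mean of 5 TPM, 61 and 17 with rescaled columns, and 10 and 35 with the zinc-excess and control columns only. They were 18 and 11 without 2 d, 21 and 1 without 14 d, and 14 and 118 with 7 d, 14 d and 21 d only. Among alternatives added after seeing the data they were 30 and 179 without 2 d and 4 d together, 25 and 11 without iron excess at 7 d, 12 and 1 without zinc excess at 14 d, and 10 and 3 with the filter on the other 29 columns. The cause of these moves was not tested. Means without their libraries leave depth and plant-to-plant spread unknown.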
